A study of Mus musculus with 8 samples.

Results

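The complement genes described here were taken as 1 group across mouse macrophages: the 3 chains of C1q (C1qa, C1qb and C1qc), the factors C3, Cfb and Cfp, and the anaphylatoxin receptors C3ar1 and C5ar1. They were listed by name and make up 8 of the 43346 genes counted. Polyadenylated RNA was sequenced from 3 kinds of mouse macrophage, each left unstimulated (0 h) or exposed to bacterial lipopolysaccharide (LPS) for 3 h. The cells labelled hMPDM gave 1 LPS and 1 unstimulated library, RAW 264.7 cells (RAW) gave 1 LPS and 1 unstimulated library, and bone marrow-derived macrophages (BMDM) gave 2 LPS and 2 unstimulated libraries. BMDM were grown from bone marrow with medium conditioned by L929 cells, a source of the macrophage growth factor M-CSF. RAW is an established macrophage-like line transformed by Abelson murine leukaemia virus and stands for 1 line only. The sources used here do not give the meaning of hMPDM, the dose of LPS, or the strain, sex and age of the animals. Nothing states that the BMDM libraries came from separate animals or cultures, so each p-value sets a difference against the spread of these libraries alone, which may be technical.

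Complement is a cascade of plasma proteins that tags microbes and dying cells and attracts phagocytes. C1q, which starts the classical pathway when it binds antibody or debris, is assembled from A, B and C chains in equal numbers, and macrophages are its main source in mice. C3 is the component on which all pathways converge: its cleavage gives C3b, which coats targets, and C3a, the ligand of the receptor encoded by C3ar1. Factor B (Cfb) forms the alternative pathway C3 convertase with C3b, and properdin (Cfp) stabilises that enzyme. C5ar1 encodes the receptor for C5a, the chemoattractant fragment of C5.

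All 8 genes lie on the minus strand (mm10). The C1q genes form a cluster on chromosome 4, with C1qb at chr4:136880129-136886187, C1qc at chr4:136889804-136893065 and C1qa at chr4:136895917-136898803, and gaps of 3617 and 2852 bases between them. C3 (chr17:57203970-57228136) and Cfb (chr17:34856374-34862518) share a chromosome but not a locus. Cfp is at chrX:20925454-20931555, C3ar1 at chr6:122847138-122856161 and C5ar1 at chr7:16246743-16259540. C3 is cut into 42 exon blocks in the annotation used for counting, against 3 for each C1q gene and for C5ar1, and 2 for C3ar1.

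The promoters of C3 and C1qb are shown because C3 had the widest LPS response in hMPDM and BMDM, and C1qb the widest gap between cell types, among the members with more than a few reads. Each line gives the 250 bases before the RefSeq gene start (GRCm38.p6, minus strand), at chr17:57228137-57228386 for C3 and chr4:136886201-136886450 for C1qb. Capitals mark matches on either strand to NF-kB (GGGANNNNCC), C/EBP (TTGCNNAA) and PU.1 (GAGGAA).
C3: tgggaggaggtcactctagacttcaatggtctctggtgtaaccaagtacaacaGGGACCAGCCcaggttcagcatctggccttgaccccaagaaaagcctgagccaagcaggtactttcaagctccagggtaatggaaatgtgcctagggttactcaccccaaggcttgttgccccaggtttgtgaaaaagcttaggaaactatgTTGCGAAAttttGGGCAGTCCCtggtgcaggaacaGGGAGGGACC
C1qb: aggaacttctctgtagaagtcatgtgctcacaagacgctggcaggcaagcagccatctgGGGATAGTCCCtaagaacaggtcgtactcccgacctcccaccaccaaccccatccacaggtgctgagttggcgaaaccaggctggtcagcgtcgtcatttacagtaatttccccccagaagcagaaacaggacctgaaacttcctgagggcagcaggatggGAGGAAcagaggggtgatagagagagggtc
The C3 window held 3 NF-kB matches and 1 C/EBP match, the nearest NF-kB match ending 1 base before the start. The C1qb window held 2 NF-kB matches that overlap each other, one on each strand, and 1 PU.1 match. Among 32851 promoter windows of the same length, 17.6% held an NF-kB match, 9.56% a C/EBP match and 23.3% a PU.1 match. A promoter entry was found for 6 of the 8 members, and those of C1qc and C3ar1 held matches too: C1qc 1 NF-kB and 1 PU.1, and C3ar1 1 TATAAA motif, which 12.4% of windows hold. The windows of Cfp and C5ar1 held no match to these motifs, and none of the 6 windows held the interferon motifs GAAANNGAAA (2.98% of windows) or TTCNNNGAA (7.02%), searched on both strands. These are matches of letters and not measured binding.

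Library totals ranged from 3116434 counts in unstimulated RAW to 19307312 counts in unstimulated BMDM replicate 2. Levels are given as CPM, counts scaled to library size, after TMM scaling, which sets the libraries to a common level for most genes, and as CPM per kilobase of exon where genes are compared with each other. Macrophage markers summed to between 14261 and 16662 CPM in every library. Most of each sum was Lyz2, with 10914 of 14706 CPM in RAW and 8902 of 14532 CPM in BMDM replicate 1, both at rest. The similar sums therefore do not show that the other macrophage markers were alike. Markers of hepatocytes, a main source of plasma complement, were at 0 counts throughout. Neutrophil markers summed to 28.1 CPM in hMPDM after LPS and 17.4 CPM at rest, to at most 4.49 CPM in RAW, and to 96.3 and 90.1 CPM in BMDM after LPS against 58.8 and 65.6 CPM at rest. Their part in the differences below was not tested. In the hMPDM LPS library, 16 genes chosen as near absent in unstimulated hMPDM but present in BMDM reached 10.8% of the BMDM level. In the unstimulated hMPDM library they stood at 1.35%, a low value that the choice of these genes fixed, so the contrast is partly built in. Levels in the hMPDM LPS library are also given with 10.8% of the BMDM profile taken out.

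**Figure D1:**
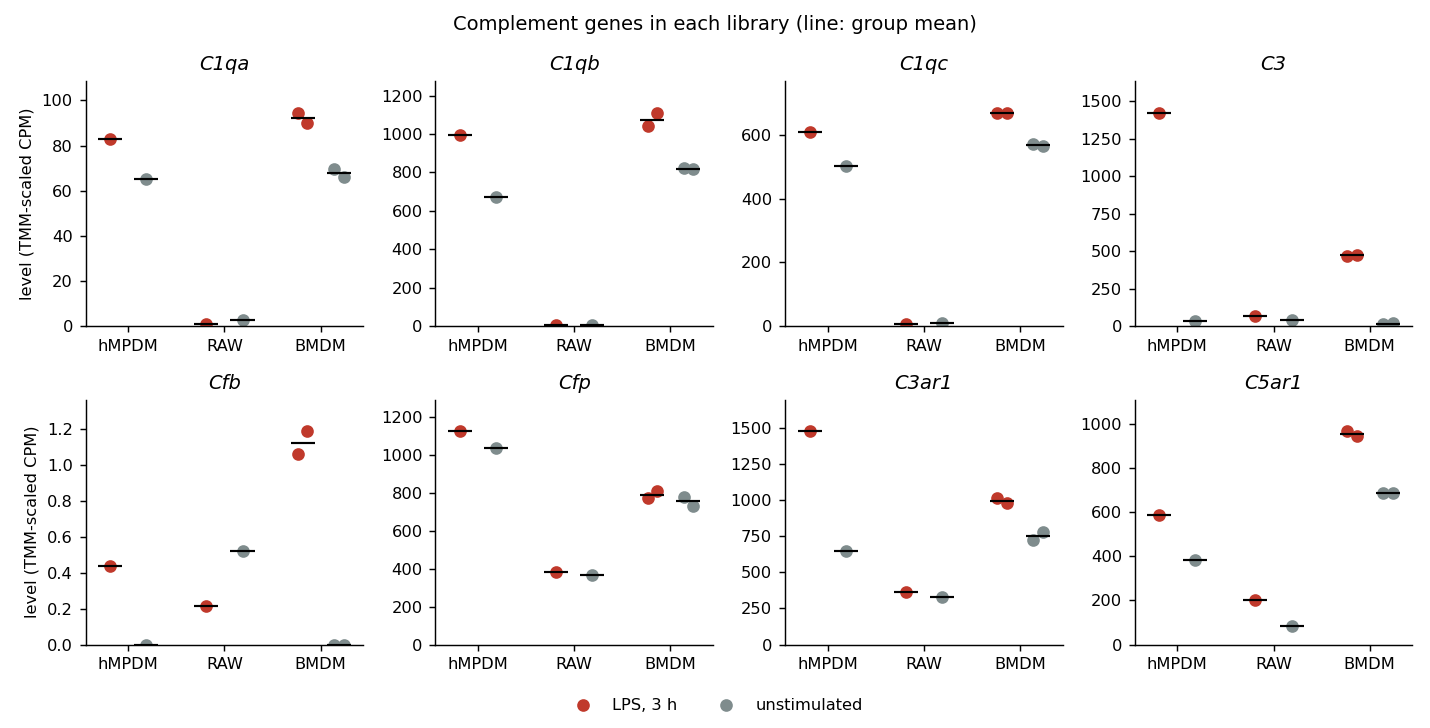
Level of each complement gene in each library, in TMM-scaled CPM on a linear axis that differs between panels. Red points are LPS libraries, grey points are unstimulated libraries and black lines are group means. The 3 C1q genes sit near the axis in RAW, C3 stands at 1421 CPM in hMPDM after LPS, and Cfb stays below 1.2 CPM everywhere.

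C1q was among the most abundant messages in hMPDM and BMDM and was nearly absent from RAW. C1qb, the B chain, had 994 CPM in hMPDM after LPS and 672 CPM at rest. In RAW it had 3.42 CPM after LPS and 5.49 CPM at rest, from 16 and 21 counts. In BMDM it had 1041 and 1109 CPM after LPS, against 823 and 816 CPM at rest. Per kilobase, C1qb ranked above 99.7% to 99.8% of the genes tested in each hMPDM and BMDM library, but above 35.2% and 44.2% in RAW after LPS and at rest. C1qc, the C chain, had 610 and 503 CPM in hMPDM after LPS and at rest, 5.78 and 8.11 CPM in RAW, and in BMDM 668 and 669 CPM after LPS against 572 and 564 CPM at rest. C1qa, the A chain, had 82.9 and 65.2 CPM in hMPDM after LPS and at rest, and 0.856 and 2.88 CPM in RAW. Its levels in BMDM were 94.5 and 90.1 CPM after LPS and 69.8 and 65.9 CPM at rest. For all 3 chains the LPS libraries of BMDM lay above the unstimulated ones without overlap, and both RAW libraries lay far below all others.

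At rest, RAW was lower than BMDM by log2 differences of −4.55 ± 0.23 for C1qa, −7.22 ± 0.13 for C1qb and −6.13 ± 0.12 for C1qc (SE; adjusted p = 1.74e-16, 2.11e-27 and 1.12e-26, edgeR quasi-likelihood test with Benjamini-Hochberg adjustment over 12461 genes). After LPS the differences were −6.73, −8.29 and −6.85, with adjusted p of 8.69e-20 or below in the same edgeR test. Fewer cells that transcribe a gene and less of its RNA per cell cannot be told apart in such bulk samples. Each RAW state is a single library, which the model takes to vary as the BMDM pairs do, with a coefficient of variation of 2.27%. With that figure set at 10%, the 3 genes remained lower in RAW in both states. The nearest tested genes on either side of the cluster did not pass: Kdm1a, 277406 bases from C1qb, had 60.2 CPM in RAW against 51.7 CPM in BMDM at rest (adjusted p = 0.0727, edgeR), and Zbtb40, 80929 bases from C1qa, had 17.0 against 14.3 CPM (adjusted p = 0.274).

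The distance between hMPDM and BMDM was small by comparison. At rest C1qb and C1qc were lower in hMPDM, with log2 differences of −0.29 ± 0.04 and −0.17 ± 0.04 (SE; adjusted p = 3.61e-06 and 0.00111, edgeR), and C1qa differed by −0.05 ± 0.06, which did not pass the test (adjusted p = 0.547). Both calls were lost with the coefficient of variation set at 10% (adjusted p = 0.382 and 0.697), and that of C1qc also in DESeq2 (0.114). After LPS C1qc alone of the chains passed, with a log2 difference of −0.13 and an adjusted p of 0.0370 in edgeR. The adjusted p was 0.130 with the BMDM replicate number as a block. This C1qc call was also lost with DESeq2 size factors, in DESeq2 and with the coefficient of variation set at 10%. Without unstimulated BMDM replicate 1 or 2 the log2 difference was −0.13 in both runs, and the call was lost. Taking the BMDM share out of the hMPDM LPS library left C1qa at 81.5 CPM, C1qb at 982 CPM and C1qc at 601 CPM, and brought C1qb to an adjusted p of 0.0341 in edgeR.

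In BMDM all 3 chains rose modestly with LPS relative to the other genes. C1qa averaged 92.3 ± 3.06 CPM after LPS and 67.8 ± 2.74 CPM at rest, C1qb 1075 ± 48.5 CPM and 820 ± 5.44 CPM, and C1qc 669 ± 0.276 CPM and 568 ± 5.52 CPM (SD, n = 2 each). The log2 changes were 0.44 ± 0.05, 0.39 ± 0.04 and 0.24 ± 0.03 (SE; adjusted p = 3.22e-08, 5.02e-11 and 6.39e-07, edgeR). These changes depended on the scaling. With library size alone, under which the median of all genes moved by −0.36, C1qa changed by 0.07 and C1qb by 0.03 without passing, and C1qc changed by −0.13 and passed (edgeR adjusted p = 0.215, 0.473 and 0.000977). With the coefficient of variation at 10%, C1qc also missed the threshold (adjusted p = 0.194). In hMPDM, where 1 library was set against 1 and no test was made, LPS to rest ratios were 1.27 for C1qa, 1.48 for C1qb and 1.21 for C1qc (95% counting intervals 1.13 to 1.43, 1.43 to 1.53 and 1.16 to 1.27). With library size scaling the log2 ratios in hMPDM were −0.04, 0.18 and −0.11, so that C1qa and C1qc turned direction. In RAW the ratios were 0.297, 0.623 and 0.712, and each interval reached 1 (upper limits 1.00, 1.25 and 1.23).

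The 3 chains kept nearly the same proportions in hMPDM and BMDM although the protein uses them in equal numbers. Per kilobase of exon, C1qb made up 69.8% of the C1q message in hMPDM after LPS and 65.7% at rest. In BMDM it made up 68.6% and 70.2% after LPS and 67.6% and 67.8% at rest. C1qa was the smallest part, with 6.09% and 6.66% in hMPDM after LPS and at rest, 6.52% and 5.97% in BMDM after LPS and 5.99% and 5.73% in BMDM at rest. C1qc held the remaining 23.8% to 27.7% in these 6 libraries, and its share was lower after LPS than at rest in both cell types. C1qb thus exceeded C1qa per kilobase by between 9.85 and 11.8 times. In RAW the C1q message consisted of 47 counts after LPS and 63 counts at rest, with C1qa at 11.8% and 23.0% per kilobase and C1qc at 43.0% and 35.0%. As shares of raw counts C1qa held 8.51% (exact 95% interval 2.37% to 20.4%) and 17.5% (9.05% to 29.1%) there, against 4.56% to 5.26% in the other 6 libraries.

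**Figure D2:**
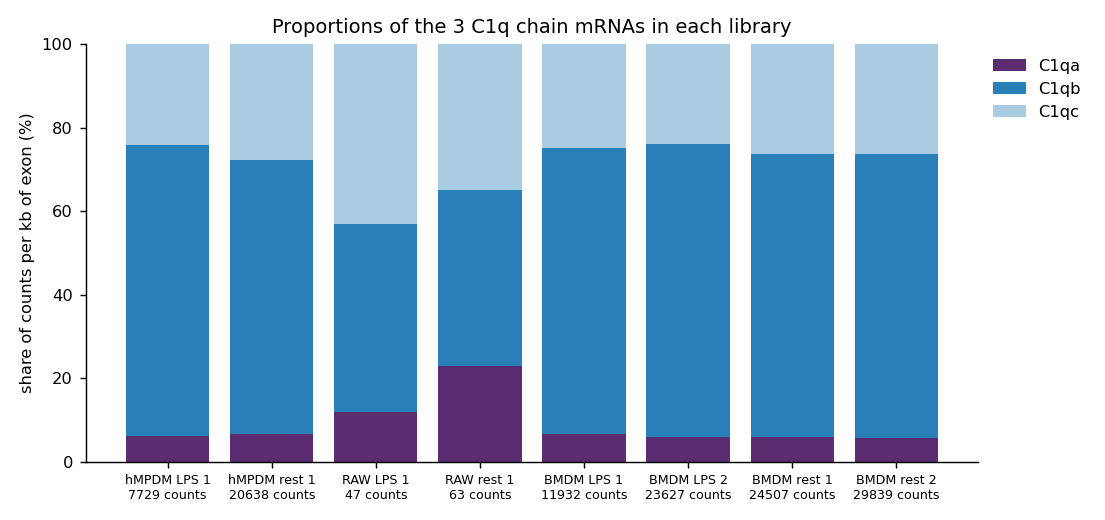
Share of each C1q chain in the C1q message of each library, as percent of counts per kilobase of exon, with the summed counts of the 3 chains under each bar. C1qb holds 65.7% to 70.2% in hMPDM and BMDM and 42.0% to 45.2% in RAW, where the shares rest on 47 and 63 counts.

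C3, the common substrate of all complement pathways, had the widest response to LPS in hMPDM and BMDM among the members with more than a few reads, while in RAW C5ar1 had a higher ratio. In hMPDM it had 1421 CPM after LPS and 34.7 CPM at rest. In RAW it had 68.9 CPM after LPS and 42.6 CPM at rest. In BMDM it had 469 and 472 CPM after LPS, against 15.8 and 16.8 CPM at rest. The LPS libraries stood above the unstimulated library of the same cell type in each case, but at rest the order of cell types was RAW, then hMPDM, then BMDM, and after LPS it was hMPDM, then BMDM, then RAW. The difference between RAW and hMPDM at rest was not tested. Per kilobase, C3 ranked above 98.5% of tested genes in hMPDM after LPS and 50.8% at rest, above 68.7% and 56.9% in RAW, and above 94.6% and 94.7% in BMDM after LPS against 33.0% and 34.2% at rest.

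In BMDM C3 rose 28.8-fold with LPS, a log2 change of 4.85 ± 0.05 (SE; adjusted p = 5.38e-34, edgeR), and the change lay between 4.48 and 4.90 under every alternative run. In hMPDM the ratio of the single libraries was 40.9 (counting interval 37.6 to 44.6), and in RAW it was 1.62 (1.33 to 1.96). The response of hMPDM exceeded that of BMDM by 0.50 ± 0.10 on the log2 scale (SE; adjusted p = 0.000678, edgeR), a call lost with the coefficient of variation at 10% (adjusted p = 0.869). The response of RAW was smaller than that of BMDM, with a log2 difference of −4.16 ± 0.18 (SE; adjusted p = 2.12e-17, edgeR), and this difference passed under every alternative run. At rest C3 was higher than in BMDM by 1.09 ± 0.09 in hMPDM and by 1.39 ± 0.14 in RAW (SE; adjusted p = 1.93e-11 and 6.62e-10, edgeR). After LPS it was higher in hMPDM and lower in RAW, with log2 differences of 1.59 ± 0.04 and −2.77 ± 0.07 (adjusted p = 7.83e-22 and 1.06e-23, edgeR). With the BMDM share taken out, hMPDM had 1532 CPM of C3 after LPS.

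Cfb, factor B of the alternative pathway, was barely detected. It had 2 counts in hMPDM after LPS and 0 at rest, 1 count in RAW after LPS and 2 at rest, and in BMDM 7 and 15 counts after LPS against 0 and 0 at rest. Where no read was counted, the level may still be as high as 0.196 CPM in unstimulated hMPDM and 0.191 and 0.155 CPM in unstimulated BMDM. Unlike the other levels and the fold below, these CPM values use library totals without TMM scaling. These limits, like the intervals, cover counting error alone and leave out the spread between libraries. The reads also carry no molecular identifiers. In BMDM Cfb was about 14.2-fold higher after LPS if 3 counts over the 2 unstimulated libraries are taken as the floor. That figure leaves out the counting error of the 22 reads after LPS. The gene entered the test through the LPS libraries of BMDM, where it is high, so its test is not used as support. It is left out of the counts of members called below, except where stated. No fold is given for hMPDM or RAW. The annotation places Gm20547, which had 0 counts in all libraries, on the same strand over 2246 of the 2825 exon bases of Cfb (79.5%). Reads from shared bases may have been left uncounted, depending on a counting setting that the sources used here do not name, so these counts may understate Cfb.

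Cfp, which encodes properdin, was abundant everywhere and did not pass the test for LPS in BMDM. It had 1123 CPM in hMPDM after LPS and 1036 CPM at rest, and 381 and 368 CPM in RAW. In BMDM it had 770 and 811 CPM after LPS and 777 and 730 CPM at rest, so the groups overlapped. The log2 change in BMDM was 0.07 ± 0.04 (SE; adjusted p = 0.0966, edgeR). It passed as higher when LPS replicate 1 or unstimulated replicate 1 was left out (0.11 in both, adjusted p = 0.00901 and 0.0376), and with library size scaling it was −0.29 (adjusted p = 6.21e-09). The ratio of LPS to rest was 1.08 in hMPDM (counting interval 1.05 to 1.12) and 1.04 in RAW (0.965 to 1.11). The hMPDM direction depended on the scaling, since the log2 ratio was −0.27 with library size and 0.12 with TMM. With the BMDM share taken out, hMPDM had 1160 CPM of Cfp after LPS and the log2 ratio was 0.16. In both states hMPDM was higher than BMDM, with log2 differences of 0.50 ± 0.05 after LPS and 0.46 ± 0.04 at rest, and RAW was lower, with −1.05 ± 0.06 after LPS and −1.03 ± 0.06 at rest (SE; adjusted p = 1.08e-09, 5.44e-10, 3.01e-16 and 2.11e-15, edgeR). With the coefficient of variation at 10%, the hMPDM call at rest was lost (adjusted p = 0.0587).

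The 2 anaphylatoxin receptors were both well expressed. Their order between cell types was the same at rest and differed after LPS. C3ar1, the receptor for C3a, had 1477 CPM in hMPDM after LPS and 651 CPM at rest. In RAW it had 362 CPM after LPS and 330 CPM at rest. In BMDM it had 1013 and 983 CPM after LPS, against 724 and 783 CPM at rest. The highest level was thus in hMPDM after LPS, the lowest in unstimulated RAW, and the BMDM states did not overlap. C3ar1 rose by 0.40 ± 0.04 on the log2 scale with LPS in BMDM (SE; adjusted p = 9.78e-11, edgeR), but by 0.04 with library size scaling, which did not pass (adjusted p = 0.362). The hMPDM ratio was 2.27 (counting interval 2.20 to 2.34) and the RAW ratio 1.10 (1.02 to 1.18). On the log2 scale the hMPDM ratio was 1.18, against 0.80 with library size scaling and 1.23 with the BMDM share taken out, which left 1532 CPM after LPS. The hMPDM response exceeded the BMDM response by 0.78 ± 0.07 (SE; adjusted p = 6.25e-10, edgeR), and the adjusted p was 0.143 with the coefficient of variation at 10%. At rest C3ar1 was lower in hMPDM than in BMDM (−0.21 ± 0.05), and after LPS it was higher (0.57 ± 0.05; adjusted p = 0.00041 and 5.85e-11, edgeR). The call at rest was lost at 10% (adjusted p = 0.595). RAW was lower than BMDM, with log2 differences of −1.46 ± 0.06 after LPS and −1.19 ± 0.06 at rest (adjusted p = 1.71e-19 and 1.68e-16, edgeR).

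C5ar1, the receptor for C5a, had 586 CPM in hMPDM after LPS and 383 CPM at rest. In RAW it had 204 CPM after LPS and 82.4 CPM at rest. In BMDM it had 965 and 945 CPM after LPS, against 685 and 688 CPM at rest, without overlap. BMDM held the highest level in each state and RAW the lowest. LPS raised C5ar1 in BMDM by 0.48 ± 0.03 on the log2 scale (SE; adjusted p = 2.29e-13, edgeR), and by 0.11 with library size scaling (adjusted p = 0.00411). The ratio of the single libraries was 1.53 in hMPDM (counting interval 1.46 to 1.60) and 2.47 in RAW (2.17 to 2.82). The hMPDM log2 ratio was 0.61, against 0.23 with library size scaling and 0.49 with the BMDM share taken out, which left 540 CPM after LPS. The RAW response exceeded that of BMDM by 0.83 ± 0.10 (SE; adjusted p = 1.89e-07, edgeR), and this difference passed under every alternative run. Relative to BMDM, hMPDM was lower, with log2 differences of −0.70 ± 0.05 after LPS and −0.84 ± 0.04 at rest, and RAW was lower too, with −2.23 ± 0.06 and −3.06 ± 0.07 (SE; adjusted p = 7.24e-13, 5.58e-16, 4.88e-24 and 1.62e-24, edgeR). C5ar2, the second C5a receptor, lies 2589 bases from C5ar1 and moved the other way in BMDM: it averaged 4.01 CPM after LPS and 6.94 CPM at rest and fell by 0.86 ± 0.18 (SE; adjusted p = 0.000182, edgeR).

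**Figure D3:**
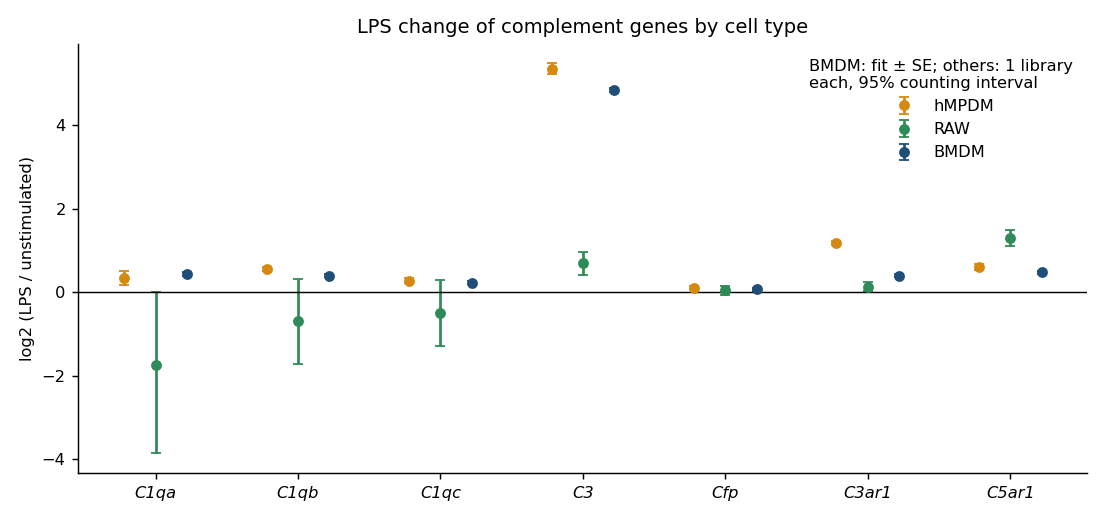
Log2 ratio of LPS to unstimulated level for 7 genes, by cell type. BMDM points are fitted changes with SE (2 libraries per state), and hMPDM and RAW points are ratios of 1 library each with 95% counting intervals. C3 stands at 4.85 in BMDM and 5.35 in hMPDM but at 0.69 in RAW, and C5ar1 is the gene with the highest ratio in RAW. Cfb is left out because it had 0 counts in unstimulated BMDM and hMPDM.

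The 7 members other than Cfb were set against all genes. With LPS in BMDM 6 of the 7 were called higher and 0 lower at an adjusted p under 0.05 in edgeR, while 31.7% of the 12461 genes tested were called higher and 31.1% lower. The median log2 change of the 7 was 0.40, against −0.02 over all genes tested. With library size scaling, 2 were higher and 2 lower, against 1997 higher and 7616 lower of all genes. In hMPDM C3 and C3ar1 were at least 2-fold higher after LPS, with a level of at least 5 CPM, as were 7.98% of genes, while 0 members and 5.6% of genes were lower by that much. With library size scaling C3ar1 no longer reached 2-fold. In RAW C5ar1 was higher by these limits, as were 1.99% of genes, while 0 members and 0.859% of genes were lower. Between BMDM replicates the same limits were passed by 5 genes after LPS and 1 gene at rest, none of them a member. A single response fitted over the 3 cell types called 3 of the 7 higher (C3 4.20, C3ar1 0.53 and C5ar1 0.71 on the log2 scale; adjusted p = 0.00562, 0.0287 and 0.00567, edgeR), with 25% of all genes called higher and 24.2% lower. Without the RAW pair it called 6, the C1q chains among them. With library size scaling C3ar1 and C5ar1 lost their calls (0.23 and 0.39; adjusted p = 0.172 and 0.0836, edgeR), and C3ar1 also lost its call when any 1 of the 4 BMDM libraries was left out (adjusted p between 0.059 and 0.078, edgeR).

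Differences between the cell types in the size of the response were tested directly, and both use the same 4 BMDM libraries. Between hMPDM and BMDM, 2 of 7 responses differed (C3 and C3ar1, both larger in hMPDM), where 3.96% of all genes were called larger and 3.89% smaller in hMPDM. The other 5 members did not pass, with log2 differences of −0.09 ± 0.11 for C1qa, 0.17 ± 0.06 for C1qb, 0.04 ± 0.06 for C1qc, 0.04 ± 0.07 for Cfp and 0.14 ± 0.06 for C5ar1 (SE). Between RAW and BMDM, C5ar1 responded more in RAW, where 10% of genes were called so, and C3, C3ar1 and C1qa less, where 12.7% were. The C3ar1 difference was −0.27 ± 0.08 and that of C1qa −2.18 ± 0.75 (SE; adjusted p = 0.0173 and 0.0354, edgeR). The C1qa value rests on 4 and 11 RAW counts. C1qa lost its call with library size scaling, with no filter, in DESeq2 and at a coefficient of variation of 10%, and C3ar1 did in all of these but the filter, and without unstimulated BMDM replicate 1.

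Both hMPDM and RAW were set against the same BMDM libraries. At rest 2 of the 7 members were called higher in hMPDM than in BMDM (C3 and Cfp) and 4 lower (C1qb, C1qc, C3ar1 and C5ar1), with 19% and 19.2% of all genes called in these directions. In RAW at rest 6 were called lower, where 31.3% of genes were, and 1 higher (C3), where 27.1% were. After LPS 3 members were called higher in hMPDM (C3, Cfp and C3ar1) and 2 lower (C5ar1 and C1qc), with 12.5% of genes called in each direction. After LPS in RAW 7 were called lower and 0 higher, with 36.4% of genes lower and 29.8% higher. The RAW values after LPS are relative to a scaling that moves the median gene by 0.47 when replaced by library size, under which the same count of 7 members stayed lower.

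**Figure D4:**
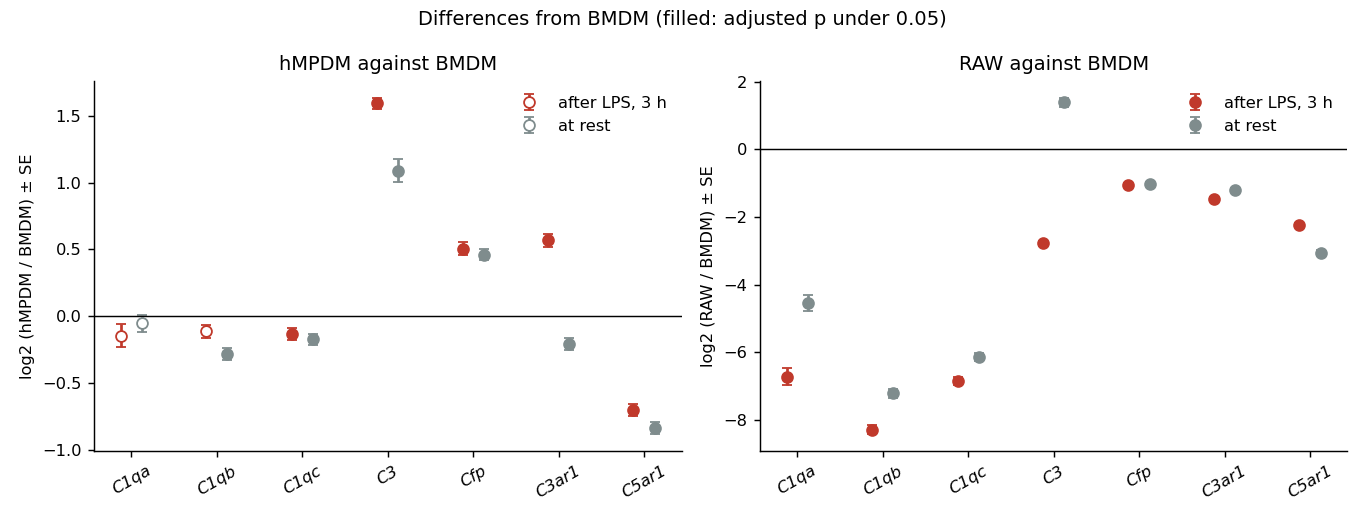
Log2 difference from BMDM for 7 genes in hMPDM (left) and RAW (right), after LPS (red) and at rest (grey), with SE from the edgeR fit; open points had an adjusted p of at least 0.05. The 3 C1q genes lie between −4.55 and −8.29 in RAW and between −0.29 and −0.05 in hMPDM, and C3 in RAW is above BMDM at rest and below it after LPS.

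Of 51 other complement genes, 22 had enough reads to be tested and 19 had 0 counts in all 8 libraries. Among initiators of the classical and lectin pathways 6 of 16 were tested, among alternative and terminal components 1 of 8, among regulators 6 of 15, and among receptors and C1q binders 9 of 12. In BMDM 5 of the 22 rose and 5 fell with LPS, where 31.7% and 31.1% of all genes did, with a median of −0.01 against −0.02 over all genes. Scarf1, a scavenger receptor that binds C1q, rose by 1.35 ± 0.08, and Cr1l, a regulator of the C3 convertase, by 0.35 ± 0.06. Fcna, a ficolin that starts the lectin pathway, rose by 0.29 ± 0.12, and Calr, which encodes the C1q-binding chaperone calreticulin, by 0.10 ± 0.03. C1ra, a C1r protease gene, rose by 0.92 ± 0.23, but a near-identical copy, C1rb, makes its count uncertain. Beside C5ar2, Colec12 fell (−0.43 ± 0.10), and Cd93, C1qbp and Lrp1 fell, with log2 changes of −0.17 ± 0.04, −0.36 ± 0.06 and −0.23 ± 0.03 (SE; edgeR adjusted p of 0.0337 or below for these 10 genes). Under library size scaling 2 of the 22 were higher and 12 lower, and Fcna, Cr1l and Calr turned to −0.08, −0.02 and −0.27. With the coefficient of variation at 10%, 4 were called higher and 3 lower, and Fcna, Calr, Cd93 and Lrp1 lost their calls (adjusted p = 0.256, 0.622, 0.379 and 0.199, edgeR).

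Between cell types at rest, RAW had 10 of the 22 higher and 6 lower than BMDM (27.1% and 31.3% of all genes), and hMPDM 5 higher and 7 lower (19% and 19.2% of all genes). Colec12, a scavenger receptor of the collectin family, had 127 CPM in hMPDM and 560 CPM in RAW against 23.0 CPM in BMDM at rest. Cd93, once described as a C1q receptor, had 783 CPM in hMPDM and 36.9 CPM in RAW against 821 CPM in BMDM, and in RAW it was lower, as the C1q chains were (log2 difference −4.48 ± 0.09, SE; adjusted p = 1.88e-26, edgeR). The complement receptor chains Itgam and Itgb2 were lower in RAW, with log2 differences of −1.14 ± 0.06 and −1.27 ± 0.05, and Itgax, the alpha chain of another complement receptor, was higher, with 1.86 ± 0.15 (SE; adjusted p of 7.61e-12 or below, edgeR). After LPS 8 of the 22 were higher and 7 lower in RAW (29.8% and 36.4% of all genes), and 5 higher and 5 lower in hMPDM (12.5% of all genes each way). With the coefficient of variation at 10%, the resting calls of Itgam, Calr and Lrp1 in hMPDM were lost. So were those of Itgam, Itgb2, Cd93 and Lrp1 in hMPDM after LPS, and of Cr1l and Lrp1 in RAW at rest. The LPS response of 4 of the 22 was larger in RAW than in BMDM (Itgax, Itgb2, C1qbp and Lrp1), as was that of 10% of all genes, and that of 1 was larger in hMPDM (Lrp1), as was that of 3.96% of all genes (edgeR, adjusted p under 0.05). With library size scaling 7 of the 22 responses were larger in RAW, and with the coefficient of variation at 10% all of these calls were lost.

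**Figure D5:**
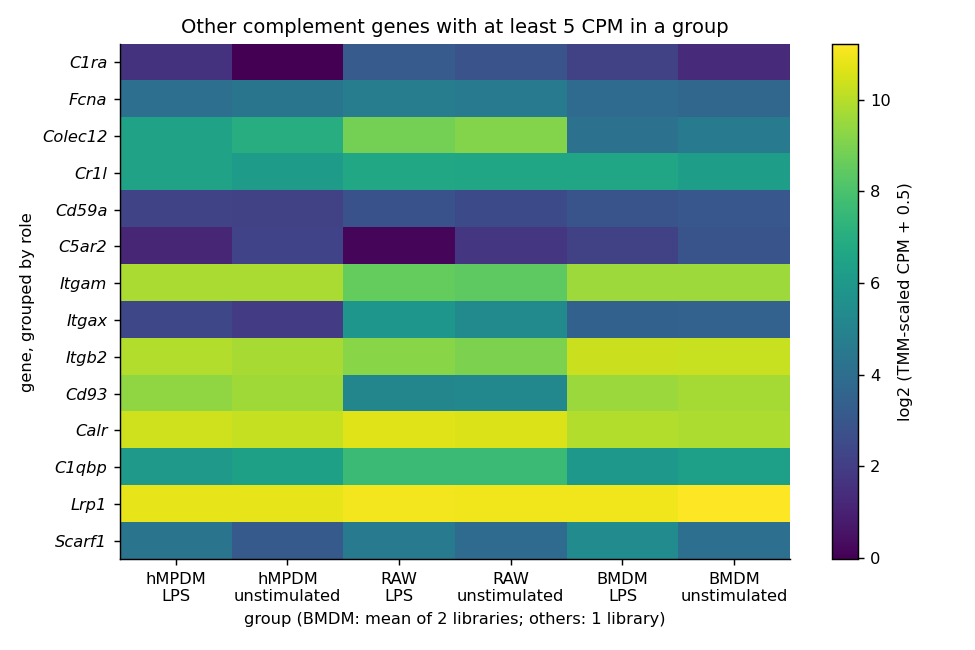
Level of 14 other complement genes with at least 5 CPM in a group, as log2 of TMM-scaled CPM plus 0.5, with genes in rows grouped by role and the 6 groups in columns (BMDM groups are means of 2 libraries). Colec12 is brighter in RAW than in BMDM at rest (560 against 23.0 CPM), and among the cell types Cd93 is darkest in RAW.

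The genes whose log2 levels were most like each member over the 8 libraries are given as a description, since the libraries share only 3 cell types and 2 states. The mean of the 3 C1q chains was followed most closely by Gpr141, Ifitm1 and Mapkapk3, each with a Pearson r that rounds to 0.999. Gpr141 had 62.8 and 32.4 CPM in hMPDM after LPS and at rest, 0 and 0.262 CPM in RAW, and 58.4 and 44.8 CPM in BMDM. C3 was most like Phf11a, Parp12 and Phf11c (r = 0.989, 0.983 and 0.983). Cfp was most like Grn, Sirpa and Cbr2 (0.996, 0.995 and 0.995), C3ar1 most like Fem1c and Ncoa2 (0.992 and 0.990), and C5ar1 most like Zyx (0.993). For Cfb the r with Adm, 0.983, rests on few reads of both genes.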

How the data were processed

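The values are unnormalised read counts by gene, used as the authors deposited them, under a header laid out as by featureCounts. Per the submitters' processing notes the tools included STAR, cutadapt, featureCounts, SAMtools and bedtools, without versions, and the build was mm10. The sources used here do not state how strand, or reads that fall in several genes, were handled, and libraries were made with a stranded kit per the labels' protocols. Of 10 value columns, 8 matched a sample. The 2 others carry hMPDM headers, matched no sample and were not used. Identifiers were matched to symbols for 42462 of 43346 genes, and the 8 members had the same span in GENCODE M21.

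Counts were tested in edgeR 4.0.16 under R 4.3.3 (glmQLFit and glmQLFTest, filterByExpr, TMM scaling, Benjamini-Hochberg adjustment, 0.05), with 1 coefficient per group over all 8 libraries. Only the BMDM pairs inform the spread, with 2 residual degrees of freedom. The common response used cell type plus LPS, with 4. SE is the log2 difference divided by the square root of F. Single libraries were compared as ratios with exact 95% counting intervals and limits of 2-fold and 5 CPM. In simulated counts, the BMDM test recovered most changes of at least 2-fold put into well-counted genes, with the same small spread in every library. Smaller changes, or libraries that vary more, were not simulated. BMDM replicates differed by more than sampling noise (chi-square per degree of freedom 1.74 after LPS and 1.65 at rest). Alternatives were library size or DESeq2 size factors, no filter, DESeq2 1.42.0, a set coefficient of variation, a replicate block, left-out libraries, and removal of a BMDM share from the hMPDM LPS library. All members were named; the other complement genes were named where a group reached 5 CPM, and the 3 most alike genes of each member by r; some genes under these rules are not reported here. The members and lists were chosen with earlier results of these data known.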

Additional observations from a re-analysis of the deposited data

Results flagged for a closer look

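Of the tested differences between LPS responses, 7 passed the threshold, that of Cfb among them (edgeR quasi-likelihood test with Benjamini-Hochberg adjustment). The response of hMPDM exceeded that of BMDM by 0.50 for C3 and by 0.78 for C3ar1 on the log2 scale. Both were lost with the coefficient of variation set at 10%. Relative to BMDM, the response of RAW was lower by log2 differences of −4.16 for C3, −2.18 for C1qa, −7.88 for Cfb and −0.27 for C3ar1, and higher by 0.83 for C5ar1. The fitted Cfb value follows from few reads and is not used as support. RAW had 1 read after LPS and 2 at rest, and BMDM had 7 and 15 after LPS against 0 at rest. The size of the fitted value carries no information beyond those counts. The C1qa value rests on 4 and 11 reads in RAW.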

How the results depend on the processing

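The scaling moved the most values. Counts of members in this part include Cfb, which entered the test through the LPS libraries of BMDM. Without Cfb, 6 members were higher with LPS in BMDM as reported, and 2 were higher and 2 lower with library size scaling. With library size in place of TMM, 3 members were called higher and 2 lower with LPS in BMDM, C1qc (−0.13) and Cfp (−0.29) turning negative, and all genes split into 1997 higher and 7616 lower, against 3945 and 3870. The same scaling gave 2 members with a larger and 2 with a smaller response in RAW, Cfp turning to 0.25 there (all genes 3052 and 987, against 1246 and 1586), 2 higher and 1 lower in the common response, with Cfp at −0.23 (all genes 1623 and 6219, against 3110 and 3011), and 1 member past 2-fold in hMPDM, C3ar1 falling below it. In RAW after LPS it split all genes into 6105 higher and 2813 lower, against 3715 and 4534. With the coefficient of variation set at 10%, 1 member was higher and 1 lower in hMPDM at rest, 1 was lower after LPS, 0 responses were larger in hMPDM, and 2 were smaller in RAW. DESeq2 called 1 member higher in RAW at rest, 1 lower in hMPDM after LPS and 1 response smaller in RAW; it called 2431 genes higher and 1728 lower with LPS in BMDM. Counts over all genes moved by more than 1.5 times in other comparisons too, given as higher and lower with DESeq2, at 10% and as reported: 649 and 716, 723 and 991, and 2371 and 2395 for hMPDM at rest; 645 and 601, 522 and 713, and 1562 and 1559 for hMPDM after LPS; 120 and 144, 50 and 73, and 494 and 485 for the hMPDM response; 413 and 961, 452 and 759, and 1246 and 1586 for the RAW response. DESeq2 also called 2098 and 2365 genes in RAW at rest, against 3381 and 3901, and 2461 higher in RAW after LPS, and at 10% 2525 genes were higher with LPS in BMDM. DESeq2 size factors and the replicate block each left 1 member lower in hMPDM after LPS, against 2. The block also took C3ar1 out of the common response (adjusted p = 0.0567, edgeR) and changed no other call. Deviations of BMDM replicates with the same number correlated at −0.0884 between LPS and rest. With 2 libraries per state, that value cannot decide whether the libraries were paired. Without the RAW pair, 7 members were higher in the common response, and 6 without Cfb.

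Leaving out single BMDM libraries gave 6 to 8 members higher in BMDM, 1 to 2 higher in RAW at rest, 1 to 3 lower in hMPDM after LPS, 2 to 3 larger responses in hMPDM, 2 to 4 smaller ones in RAW and 2 to 3 higher in the common response. These counts include Cfb, which was not tested without LPS replicate 2 or either unstimulated replicate. The lower count in RAW at rest came in those runs alone. C1qb passed as lower in hMPDM after LPS without LPS replicate 1 (−0.16), and as a larger response in hMPDM without LPS replicate 2 (0.22). Without LPS replicate 2 the common response had 1969 genes lower, against 3011. Without exon length C1qa held 4.66% of the C1q message in resting BMDM, against 5.86%. RAW C1q chains and Cfb rest on few reads, and their differences within RAW were not detectable at this depth.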
